A study of Mus musculus with 6 samples.

Results

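The genes described here encode cyclins, cyclin-dependent kinases (CDKs), CDC proteins, E2F transcription factors, Aurora and polo-like kinases, BUB checkpoint proteins and centromere proteins (CENP). They are the protein-coding genes of the deposited count table whose symbols belong to these families. The rule reads only names and annotation, but the families were chosen with earlier results of these data known. The rule found 91 genes among 54532 in the table, and 85 of them had enough counts to be tested. RNA was sequenced from TM3, a cell line derived from Leydig cells of the mouse testis. The control group held 3 libraries, labelled wild type (WT) and overexpression control, and the other group held 3 libraries of TM3 cells that overexpressed A20. Both groups were grown in the same DMEM/F12 medium with bovine and horse serum. A20, encoded by Tnfaip3, edits ubiquitin chains and dampens the NF-kB pathway. The vector and promoter behind the overexpression, whether the cells were a clone or a pool, what the controls carried and whether replicates came from different cultures are not given in the sources used here, so p-values measure only the spread between these libraries, which may be technical.

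Progress through the cell cycle is driven by CDKs, each of which is active only when bound to a cyclin. D-type cyclins with Cdk4 and Cdk6 start the exit from G1 by phosphorylating the retinoblastoma protein, which releases E2F factors, and cyclin E, cyclin A and cyclin B then act in turn with Cdk2 and Cdk1. In mitosis, CENP proteins build the kinetochore on centromeric chromatin, BUB proteins watch its attachment to the spindle, and Aurora and polo-like kinases correct attachments and drive division. The RNA of many of these genes is made mainly in S, G2 and M phase, so a bulk level depends both on how many cells are cycling and on the RNA in each cell. In these bulk libraries fewer cycling cells and less RNA per cell cannot be told apart.

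Total counts ran from 13841287 to 16917979 per library, and 3 counts corresponded to 0.177 to 0.217 counts for each 1000000 of a library's total (CPM). Control replicate 1 stood apart from the other 5 libraries. The 7 Leydig cell markers examined summed to 2039 CPM there, against 3.97 to 6.29 CPM in the other controls and 5.26 to 7.86 CPM under A20 overexpression, and Cyp17a1, Hsd3b1 and Lhcgr had no count in any of these 5 libraries. Cyp11a1 and Hsd3b1, which define steroid-making Leydig cells, were thus at or near 0 in 5 of the 6 libraries. The 6 Sertoli markers summed to 234.5 CPM in control replicate 1, to 22.9 to 31.3 CPM in the other controls and to 9.28 to 13.7 CPM under A20 overexpression. The 5 germ cell markers summed to 19.7, 0.722 to 1.25 and 2.04 to 3.90 CPM in the same order, and the 4 endothelial markers to 35.6, 0.139 to 0.217 and 0.265 to 0.639 CPM. The 4 macrophage markers summed to 4.23, 30.7 to 30.9 and 19.3 to 38.8 CPM, and the 4 stromal markers to 1545, 4443 to 5821 and 6812 to 7349 CPM. In control replicate 1 a single gene made up most of each of these sums apart from that of the Leydig markers. These genes were Clu (221 CPM, Sertoli), Kit (15.5 CPM, germ cell), Cdh5 (35.1 CPM, endothelial), Cd68 (3.71 CPM, macrophage) and Col1a1 (1410 CPM, stromal). Fshr, Sox9, Dazl, Adgre1, Ptprc and Lum had no count in any library. Markers therefore also differed between the groups in the 5 libraries without control replicate 1, where Dcn fell (log2 fold change -2.02 ± 0.17, SE, edgeR adjusted p = 2.6e-06) and Clu fell (-1.30 ± 0.21, SE, adjusted p = 0.0029), while Ddx4 had 1.61 ± 0.56 (SE, adjusted p = 0.105). The stromal markers did not move together. Unlike Dcn, Col1a1 had 0.49 ± 0.16 (SE, edgeR adjusted p = 0.0803) and Pdgfra had 0.12 ± 0.14 (SE, edgeR adjusted p = 0.663) in these 5 libraries. The cell cycle inhibitors Cdkn2a and Cdkn2b had 1549 and 445 counts in control replicate 1 and 0 counts in each of the other 5 libraries. Whether control replicate 1 came from the same cell stock as the others is not given in the sources used here, and every value with all 6 libraries includes it. The part of these differences in the values below was not tested. Tnfaip3 was at 30.9, 11.9 and 15.2 CPM in control and at 41.0, 33.7 and 43.6 CPM under A20 overexpression, with a log2 fold change of 1.06 ± 0.30 (SE, edgeR adjusted p = 0.336) with all 6 libraries and 1.51 ± 0.19 (SE, edgeR adjusted p = 0.000256) without control replicate 1. The groups were therefore compared with all 6 libraries and again with the 5 libraries without control replicate 1.

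The summed CPM of the cell cycle genes, in which abundant genes weigh most, was at much the same level in both groups. Their CPM values summed to 6860, 7157 and 7054 in control replicates 1, 2 and 3 and to 7374, 7275 and 6838 in A20-overexpressing replicates 1, 2 and 3, so the groups overlapped. With all 6 libraries, edgeR's quasi-likelihood test called 0 of the 85 members kept, against 2 of all 13350 genes tested (0.015%, with 0.00749% higher and 0.00749% lower). At an unadjusted p under 0.05 it found 9 members (10.6%), 4 higher and 5 lower, against 10.1% of all genes (3.78% higher and 6.29% lower). DESeq2 and limma-voom also called 0 members with all 6 libraries. Without control replicate 1, 3 members rose and 2 fell under A20 overexpression and 80 did not pass, which is 5.88% of the members against 4.6% of the 13658 genes tested (1.92% higher and 2.68% lower). An unadjusted p under 0.05 was found for 18 members in that fit, 7 higher and 11 lower (21.2% against 21.6% of all genes, of which 10.4% higher and 11.2% lower). These shares lie close to those of all genes. The groups did not overlap in CPM for 7 members with higher values (8.24% against 7.62% of all genes) and for 11 with lower values (12.9% against 9.27%) in the 6 libraries, where 16.9% of all genes did not overlap, and for 15 (17.6% against 20.7%) and 19 (22.4% against 17.2%) in the 5, where 37.9% of all genes did not. Fitted values of 22 members had opposite signs in the 2 fits.

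The 3 genes that rose were Cenpb, which encodes the centromere protein that binds the CENP-B box of satellite DNA, Plk3, a stress-responsive polo-like kinase, and Cdk6, a partner of D-type cyclins. The 2 that fell were Cdc7, the kinase that with its activator Dbf4 fires replication origins, and Ccng2, an unusual cyclin linked to cell cycle arrest. Cdc7, Cdk6 and Plk3 also did not overlap between the groups when control replicate 1 was counted. Cenpb and Ccng2 did overlap then, because control replicate 1 lay beyond the A20-overexpressing libraries on the side away from the other controls. Leaving out 1 A20-overexpressing library removed all of these calls, and calls over all genes fell as well. Without A20-overexpressing replicate 1, 2 or 3, edgeR called 0 members. Of all genes it then called 142 of 13422, 191 of 13434 and 160 of 13388, against 628 of 13658 in the 5 libraries. In these fits the log2 fold change was -0.69, -0.61 and -0.62 for Cdc7 and 0.58, 0.63 and 0.52 for Cdk6. limma-trend on log2(FPKM + 1) called 0 members in the 5 libraries, and 109 of all 13658 genes tested.

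**Figure D1:**
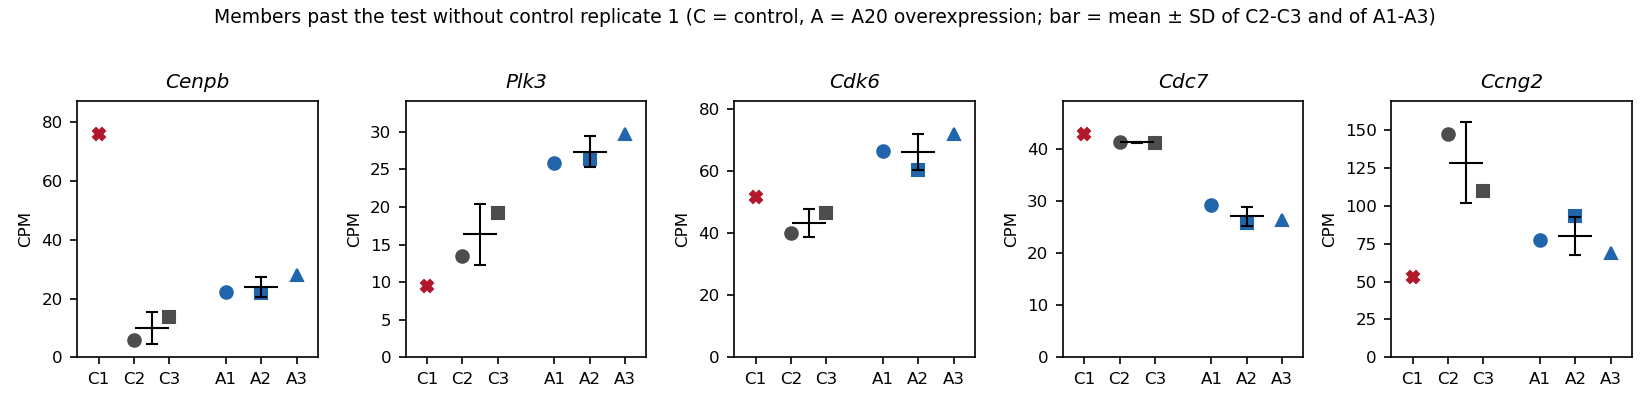
CPM by library of the 5 members that edgeR called in the 5-library comparison (C1 to C3, control; A1 to A3, A20 overexpression; bars, mean ± SD of C2 and C3 and of A1 to A3). Control replicate 1 (cross) lies just above the other controls for Cdk6 and Cdc7 and below them for Plk3, but at 76.0 CPM it lies above all libraries for Cenpb and at 52.8 CPM below all libraries for Ccng2.

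Cdc7 had the most even values of the 5. It stood at 42.9, 41.3 and 41.3 CPM in control replicates 1, 2 and 3 and at 29.2, 25.8 and 26.4 CPM in A20-overexpressing replicates 1, 2 and 3. All 3 controls lay above all 3 A20-overexpressing libraries. Cdc7 (ENSMUSG00000029283) lies on GRCm38 chromosome 5 from 106964322 to 106984432 on the plus strand. The log2 fold change was -0.64 ± 0.16 (SE) without control replicate 1 (1.56-fold lower, edgeR adjusted p = 0.0295), and -0.62 ± 0.16 (SE) with all 6 libraries, where it had the smallest p of any member (unadjusted p = 0.00347, adjusted p = 0.278 in edgeR).

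Cdk6 stood at 51.7, 40.1 and 46.5 CPM in the 3 controls and at 66.5, 60.2 and 71.8 CPM under A20 overexpression. The lowest A20-overexpressing library was above the highest control. Cdk6 (ENSMUSG00000040274, chromosome 5, 3341485 to 3531008, plus strand) had a log2 fold change of 0.58 ± 0.15 (SE, edgeR adjusted p = 0.0353) without control replicate 1 and 0.54 ± 0.14 (SE, edgeR adjusted p = 0.317) with all 6 libraries.

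Plk3 stood at 9.51, 13.5 and 19.2 CPM in control and at 25.9, 26.4 and 29.7 CPM under A20 overexpression. The controls were spread over 2.02-fold but all lay below the A20-overexpressing libraries. Plk3 (ENSMUSG00000028680, chromosome 4, 117128655 to 117133963, minus strand) had a log2 fold change of 0.71 ± 0.19 (SE, edgeR adjusted p = 0.043) without control replicate 1 and of 0.95 ± 0.28 (SE, edgeR adjusted p = 0.378) with it. limma-voom (adjusted p = 0.0562) and scaling by library size alone (adjusted p = 0.0547 in edgeR) put Plk3 just outside the threshold in the 5 libraries.

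Cenpb depended most on control replicate 1. It stood at 76.0, 6.06 and 13.7 CPM in the 3 controls and at 22.1, 21.8 and 28.0 CPM under A20 overexpression. Control replicates 2 and 3 were both below the A20-overexpressing libraries, and control replicate 1 was above them by far. Cenpb (ENSMUSG00000068267, chromosome 2, 131175182 to 131180067, minus strand), which has a single exon, had a log2 fold change of 1.25 ± 0.27 (SE, 2.38-fold, edgeR adjusted p = 0.0154) in the 5 libraries and of -0.33 ± 0.70 (SE, edgeR adjusted p = 0.904) in the 6. Control replicates 2 and 3 were themselves 2.26-fold apart. Of the exonic bases, 3.32% of Plk3 are shared with Tctex1d4 (at most 0.575 CPM), 2.63% of Cdk6 with Gm17590 (at most 0.397 CPM) and 0.41% of Cenpb with Spef1 (at most 0.977 CPM).

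Ccng2 stood at 52.8, 147 and 109 CPM in control and at 77.2, 93.4 and 69.1 CPM under A20 overexpression. Control replicates 2 and 3 were above the A20-overexpressing libraries and control replicate 1 was below them. Ccng2 (ENSMUSG00000029385, chromosome 5, 93267257 to 93276231, plus strand) had a log2 fold change of -0.72 ± 0.17 (SE, 1.65-fold lower, edgeR adjusted p = 0.0229) in the 5 libraries and of -0.39 ± 0.37 (SE, edgeR adjusted p = 0.747) in the 6.

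The promoters of these 5 genes are shown because they are the members that passed the test in either comparison. Each window runs from 250 bases before to 50 bases after a RefSeq start site on GRCm38.p6, 5′ to 3′ on the gene's strand. Capitals mark matches, on either strand, to an E2F site (TTTCCCGC, TTTGGCGC, TTTCGCGC or TTTGCCGC), to the cell cycle genes homology region, known as CHR (TTTGAA or TTCGAA), or to a CCAAT box (CCAAT). Overlapping matches would share capitals, and none overlapped here. The start sites of Plk3, Cenpb and Cdc7 are those of the deposited annotation, whereas the nearest RefSeq start lay 316 bases away for Ccng2 and 2408 bases away for Cdk6.
Plk3 promoter (chr4:117133914-117134213, minus strand): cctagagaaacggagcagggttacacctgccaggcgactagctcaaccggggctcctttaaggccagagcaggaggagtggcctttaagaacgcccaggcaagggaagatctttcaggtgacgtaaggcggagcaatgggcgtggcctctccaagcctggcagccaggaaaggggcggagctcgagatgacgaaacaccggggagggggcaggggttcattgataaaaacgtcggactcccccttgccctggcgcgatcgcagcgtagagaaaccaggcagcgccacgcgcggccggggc
Cdk6 promoter (chr5:3343643-3343942, plus strand): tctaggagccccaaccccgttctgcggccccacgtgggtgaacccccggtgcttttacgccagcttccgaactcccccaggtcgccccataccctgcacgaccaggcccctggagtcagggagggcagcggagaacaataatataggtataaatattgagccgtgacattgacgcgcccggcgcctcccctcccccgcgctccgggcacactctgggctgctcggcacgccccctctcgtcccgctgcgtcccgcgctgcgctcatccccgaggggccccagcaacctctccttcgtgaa
Cenpb promoter (chr2:131180018-131180317, minus strand): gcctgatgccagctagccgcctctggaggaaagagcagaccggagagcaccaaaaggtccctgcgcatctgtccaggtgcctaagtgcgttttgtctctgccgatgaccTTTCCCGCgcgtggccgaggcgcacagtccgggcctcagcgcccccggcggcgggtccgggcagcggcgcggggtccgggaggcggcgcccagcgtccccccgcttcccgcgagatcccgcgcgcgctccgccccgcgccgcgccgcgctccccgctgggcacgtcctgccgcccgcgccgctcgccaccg
Ccng2 promoter (chr5:93267323-93267622, plus strand): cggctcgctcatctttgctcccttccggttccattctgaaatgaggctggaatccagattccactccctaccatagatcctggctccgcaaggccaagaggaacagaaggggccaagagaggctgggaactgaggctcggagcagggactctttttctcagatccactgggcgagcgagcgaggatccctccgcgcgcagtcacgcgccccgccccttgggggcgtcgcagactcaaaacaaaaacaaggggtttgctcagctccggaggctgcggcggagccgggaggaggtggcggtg
Cdc7 promoter (chr5:106964072-106964371, plus strand): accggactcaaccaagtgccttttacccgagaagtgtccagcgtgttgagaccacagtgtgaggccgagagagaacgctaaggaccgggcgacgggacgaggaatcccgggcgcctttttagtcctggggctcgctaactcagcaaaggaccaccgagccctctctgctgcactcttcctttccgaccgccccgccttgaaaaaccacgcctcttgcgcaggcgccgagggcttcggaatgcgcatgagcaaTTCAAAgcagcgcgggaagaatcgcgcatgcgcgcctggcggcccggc

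Of these windows, Cenpb (75.7% G and C) held 1 E2F match and Cdc7 (62.3% G and C) held 1 CHR match, while the letters searched did not occur in the windows of Plk3, Cdk6 and Ccng2. Among the 78 members with a RefSeq promoter on the same chromosome, 11 (14.1%) held an E2F match, against 2.93% of the 16495 promoters of protein-coding genes, 21 (26.9%) held a CHR match against 17.3%, and 42 (53.8%) held a CCAAT box against 38.8%. The 11 with an E2F match were Cdc25a, Cdk1, Cdk2, Cenpb, Cenpl, Cenpm, Cenps, E2f2, E2f3, E2f7 and Cdc6. Their log2 fold changes in the 5 libraries ran from -0.74 to 1.25 with a median of 0.00. The 21 with a CHR match, among them Ccnb2, Plk1, Aurka and Bub1, had a median of -0.06. Of these 21, 13 were below 0, where 51.8% of the members kept and 50.3% of all genes tested were.

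**Figure D2:**
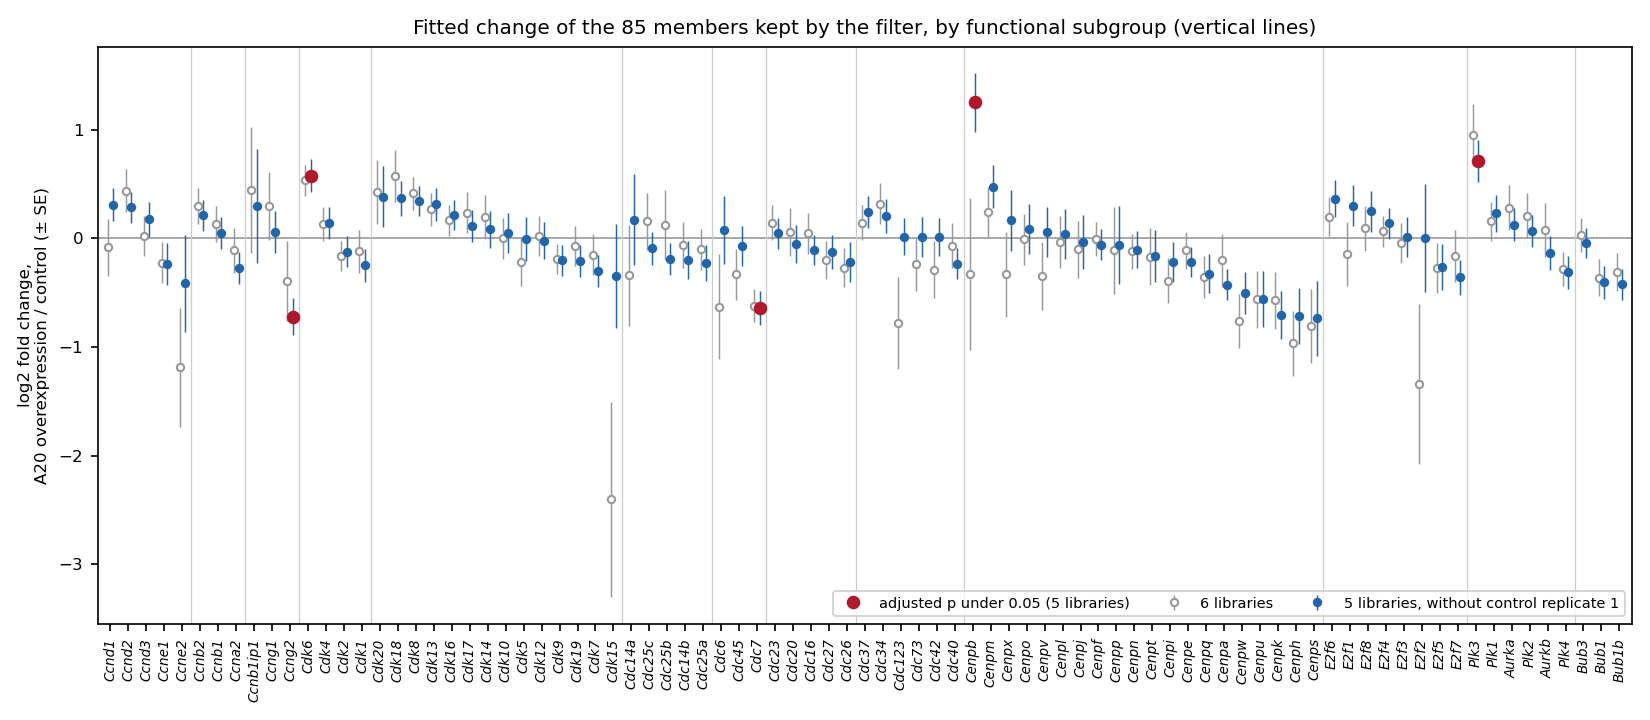
Fitted log2 fold change (A20 overexpression over control) with its SE for the 85 members kept, by subgroup, with all 6 libraries (open) and without control replicate 1 (blue; red where the adjusted p was under 0.05). Most blue points lie within 0.5 of 0 (75 of 85), and the lowest open points, Cdk15, E2f2 and Ccne2, move towards 0 without control replicate 1.

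Among the cyclins that act in G1 and at the start of S phase, 0 of 5 passed the test in either comparison, and Ccnd2 was the most abundant D-type cyclin per kilobase. Ccnd2 stood at 197, 266 and 255 CPM in the 3 controls and at 319, 307 and 349.9 CPM under A20 overexpression. The groups did not overlap, and the log2 fold change of 0.44 ± 0.20 (SE) with all 6 libraries had an edgeR adjusted p of 0.508 (0.29 ± 0.14 and 0.255 in the 5). Per kilobase of gene length, the mean level over the 6 libraries was 30.0 CPM for Ccnd2, 12.3 CPM for Ccnd1 and 9.10 CPM for Ccnd3.

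Ccnd1 followed control replicate 1 instead. It stood at 93.6 CPM there and at 45.1 and 42.1 CPM in the other controls, against 59.4, 52.8 and 54.3 CPM under A20 overexpression. Control replicate 1 was the highest library and the other controls were the lowest. The log2 fold change was 0.31 ± 0.15 (SE, edgeR adjusted p = 0.239) in the 5 libraries and -0.08 ± 0.26 (SE, adjusted p = 0.935) in the 6. The E-type cyclins, partners of Cdk2, were lower: Ccne1 ran from 16.2 to 21.6 CPM over the 6 libraries, and Ccne2 from 1.41 to 2.65 CPM in 5 of them with 8.34 CPM in control replicate 1.

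The cyclins of S, G2 and M phase did not pass the test either, with 3 of 5 genes kept. Ccnb2, a cyclin B that partners Cdk1, stood at 101, 111 and 115 CPM in control and at 144, 137 and 120.5 CPM under A20 overexpression. The groups did not overlap but were separated by little, with a log2 fold change of 0.30 ± 0.16 (SE, edgeR adjusted p = 0.569) in the 6 libraries. Ccnb2 and Ccnb1 had log2 fold changes of 0.21 and 0.05 without control replicate 1, and none passed the test. Ccnb1 ran from 155 to 175 CPM in control and from 158 to 197 CPM under A20 overexpression. Ccna2, cyclin A2, stood at 162, 228 and 209 CPM in control and at 192, 197 and 167 CPM under A20 overexpression, and its log2 fold change was -0.27 ± 0.14 (SE, edgeR adjusted p = 0.287) in the 5 libraries. Ccna2 and Ccnb1 had log2 fold changes of -0.11 and 0.13 with all 6 libraries, and none passed the test. In all 3 of these cyclins control replicate 1 was the lowest of the 6 libraries. Ccna1 and Ccnb3, the cyclins A and B of germ cells, had no count in any library.

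Of the other cyclins, Ccng1, a p53 target, was the most abundant member per kilobase, at a mean of 144 CPM. It stood at 302, 649.6 and 394 CPM in control and at 602, 559 and 522 CPM under A20 overexpression. The A20-overexpressing libraries lay between control replicates 2 and 3, and the log2 fold change was 0.06 ± 0.19 (SE, edgeR adjusted p = 0.894) in the 5 libraries. Ccng1 had a log2 fold change of 0.30 with all 6 libraries and did not pass the test. Ccnb1ip1, a ubiquitin ligase gene needed for meiotic crossing over, was low, at 0.939 to 3.31 CPM.

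The kinases that drive the cycle did not pass the test, apart from Cdk6 (1 of 4). Cdk4 was the most abundant of them per kilobase (115 CPM on average) and Cdk6 the least (4.01 CPM). Cdk4 stood at 382, 325 and 365 CPM in control and at 350.2, 419.6 and 395 CPM under A20 overexpression, so the groups overlapped, with a log2 fold change of 0.14 ± 0.15 (SE, edgeR adjusted p = 0.628) in the 5 libraries. Of its exonic bases, 19.7% are shared with Tspan31 on the opposite strand, which had 84.3 to 126 CPM. Cdk1, the mitotic kinase, stood at 208, 229 and 286 CPM in control and at 230.1, 244 and 191 CPM under A20 overexpression. Cdk2 ran from 64.2 to 84.7 CPM in control and from 64.4 to 70.5 CPM under A20 overexpression. The groups overlapped for both. Cdk4, Cdk1 and Cdk2 had log2 fold changes of 0.13, -0.12 and -0.16 with all 6 libraries, and none passed the test.

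None of the 14 other CDKs passed edgeR's test in either comparison. In the 5 libraries 2 of the 14 had an unadjusted p under 0.05, both with higher values (Cdk8 and Cdk18), where 21.6% of all genes did. With all 6 libraries 2 had higher values at that threshold (Cdk8 and Cdk18) and 1 had lower values, where 10.1% of all genes passed it. The lower one was Cdk15 (log2 fold change -2.40 ± 0.90, SE, edgeR unadjusted p = 0.0269). Cdk8, the kinase of the Mediator complex, stood at 102, 112 and 106 CPM in control and at 148, 141 and 137 CPM under A20 overexpression. The groups did not overlap, and the log2 fold change was 0.41 ± 0.15 (SE, unadjusted p = 0.0263, edgeR adjusted p = 0.455) with all 6 libraries. It was 0.34 ± 0.14 (SE, edgeR adjusted p = 0.161) in the 5. Cdk18 stood at 35.8, 46.8 and 63.0 CPM in control and at 65.0, 82.1 and 69.9 CPM under A20 overexpression. The groups were closest between control replicate 3 and A20-overexpressing replicate 1, and the log2 fold change in the 5 libraries was 0.37 ± 0.16 (SE, edgeR adjusted p = 0.196). Cdk16, the most abundant of the 14 per kilobase, ran from 149 to 182 CPM in control and from 169 to 187 CPM under A20 overexpression. Cdk7 and Cdk9, which phosphorylate RNA polymerase II, had log2 fold changes of -0.30 ± 0.14 and -0.20 ± 0.14 (SE) in the 5 libraries and did not pass. Cdk18, Cdk16, Cdk7 and Cdk9 had log2 fold changes of 0.57, 0.17, -0.15 and -0.19 with all 6 libraries, and none passed the test.

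The phosphatases that remove the inhibitory phosphates from CDKs, Cdc25a, Cdc25b and Cdc25c, and the Cdc14 phosphatases had 0 of 5 genes past the test. Cdc25b was the most abundant at 94.3, 198 and 219 CPM in control and 170.2, 213 and 179 CPM under A20 overexpression. Control replicate 1 lay well below the rest, which overlapped, and the log2 fold change was -0.19 ± 0.15 (SE, edgeR adjusted p = 0.494) without it. Cdc25b, Cdc25a and Cdc14a had log2 fold changes of 0.12, -0.10 and -0.34 with all 6 libraries, and none passed the test. Cdc25a stood at 26.5, 33.7 and 30.9 CPM in control and 29.6, 27.7 and 27.9 CPM under A20 overexpression. Cdc14a, which counters CDK phosphorylation, stood at 5.54 CPM in control replicate 1 and at 1.81 to 2.75 CPM in the other 5 libraries.

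Of the replication factors beside Cdc7, neither passed. Cdc45, a part of the replicative helicase, stood at 61.1, 29.1 and 40.6 CPM in control and at 40.4, 30.5 and 30.9 CPM under A20 overexpression. Cdc6, which loads the helicase on origins, stood at 22.0, 6.69 and 7.08 CPM in control and at 10.6, 6.84 and 4.84 CPM under A20 overexpression. In both, control replicate 1 was the highest library. The other controls lay within the range of the A20-overexpressing libraries for Cdc6 and just outside either end of it for Cdc45. The edgeR adjusted p was 0.666 for Cdc45 and 0.689 for Cdc6 with all 6 libraries. Cdc45 and Cdc6 had log2 fold changes of -0.07 and 0.08 without control replicate 1, and none passed the test.

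The CDC genes of the anaphase-promoting complex, the ubiquitin ligase that ends mitosis, had 0 of 5 kept genes past the test. Cdc20, its mitotic activator and the most abundant of them per kilobase (98.6 CPM), stood at 161, 158 and 223 CPM in control and at 209.8, 208 and 145 CPM under A20 overexpression. The groups spanned the same range, with a log2 fold change of -0.05 ± 0.18 (SE, edgeR adjusted p = 0.905) in the 5 libraries. Cdc26 stood at 26.3, 22.4 and 20.8 CPM in control and at 19.6, 18.8 and 18.9 CPM under A20 overexpression, without overlap but with an edgeR adjusted p of 0.64 in the 6 libraries. Cdc27, Cdc16 and Cdc23, subunits of the complex, had log2 fold changes of -0.13, -0.11 and 0.05 in the 5 libraries. Kif20a on the opposite strand (91.2 to 156 CPM) shares 13.4% of the exonic bases of Cdc23. Cdc20, Cdc26, Cdc27, Cdc16 and Cdc23 had log2 fold changes of 0.06, -0.27, -0.20, 0.05 and 0.14 with all 6 libraries, and none passed the test.

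The remaining CDC genes have tasks outside the cycle as well, and 0 of 6 kept passed. Cdc42, which acts in cell polarity, was the most abundant at 556, 360.3 and 235 CPM in control and 323, 304 and 300.4 CPM under A20 overexpression. The 3 controls differed by 2.37-fold and enclosed the A20-overexpressing libraries. Cdc123, an assembly factor of translation initiation factor eIF2, stood at 94.7, 23.6 and 29.7 CPM in control and at 28.6, 26.1 and 27.8 CPM under A20 overexpression, so that 5 libraries were level and control replicate 1 was 3.48-fold above their mean. Cdc37, a kinase-specific cochaperone, and Cdc40, a splicing factor, had log2 fold changes of 0.24 ± 0.15 and -0.23 ± 0.14 (SE) in the 5 libraries. Cdc42, Cdc123, Cdc37 and Cdc40 had log2 fold changes of -0.29, -0.78, 0.15 and -0.07 with all 6 libraries, and none passed the test.

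Of the 20 CENP genes, Cenpb rose without control replicate 1 and 19 did not pass. In the 5 libraries, 14 of the 20 had a fitted value below 0 (median -0.13), against 50.3% of all genes, and 6 of them had lower values at an unadjusted p under 0.05 (Cenpa, Cenph, Cenpk, Cenps, Cenpu and Cenpw), where 11.2% of all genes did. Another 2 had higher values at that threshold (Cenpb and Cenpm), where 10.4% of all genes did. Cenpm stood at 23.5, 13.7 and 14.3 CPM in control and at 18.7, 20.6 and 20.5 CPM under A20 overexpression. The A20-overexpressing libraries lay above control replicates 2 and 3 and below control replicate 1, with a log2 fold change of 0.48 ± 0.20 (SE, edgeR adjusted p = 0.165) in the 5 libraries and 0.24 (adjusted p = 0.747) in the 6. With all 6 libraries 19 of the 20 were below 0 (median -0.26), against 56.2% of all genes. Cenpm alone lay above 0 there. Control replicate 1 was the highest library for 12 of the 20, and Cenpb, which rose without it, is among the 19.

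**Figure D3:**
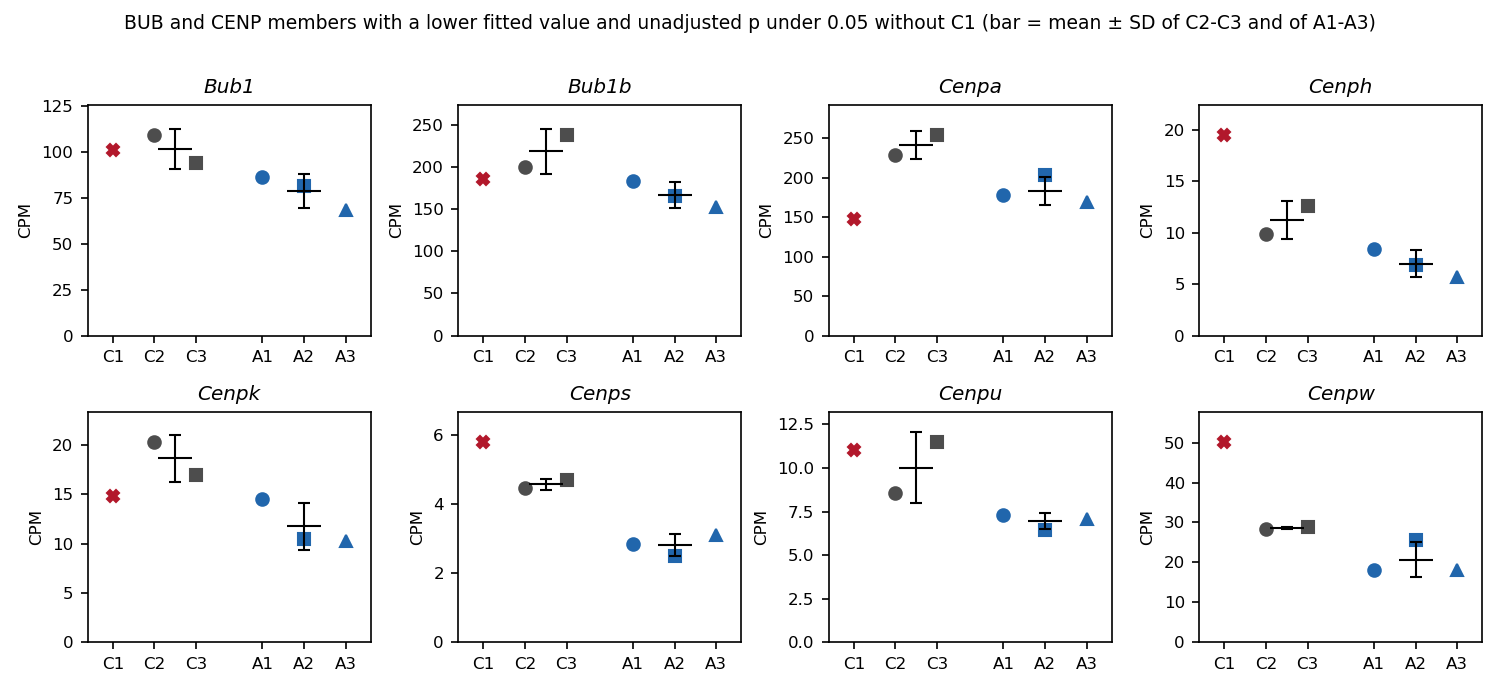
CPM by library for the 8 BUB and CENP members with a lower fitted value and an unadjusted p under 0.05 without control replicate 1 (symbols and bars as in the plot of the 5 called members). The genes were chosen for lower values in these libraries, so that their order is no test. In 7 of the 8 panels every A20-overexpressing library lies below every control in CPM, an order found in 9.27% of all genes tested. In the panel of Cenpa control replicate 1, at 147 CPM, is the lowest of the 6. CPM carries no TMM scaling. With it, control replicate 1 (factor 1.089) would lie below A20-overexpressing replicate 1 (factor 1.000) for Cenpk and Bub1b.

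Cenpk and Cenph belong to the constitutive centromere-associated network, the inner kinetochore that stays on the centromere throughout the cycle. Cenpk stood at 14.9, 20.3 and 17.0 CPM in control and at 14.5, 10.5 and 10.3 CPM under A20 overexpression. Cenph stood at 19.5, 9.90 and 12.6 CPM in control and at 8.39, 6.90 and 5.70 CPM under A20 overexpression. All controls lay above all A20-overexpressing libraries in CPM in both, by a narrow margin in Cenpk that TMM scaling would reverse. In the 5 libraries the log2 fold change of Cenpk was -0.70 ± 0.22 (SE, edgeR adjusted p = 0.0782) and that of Cenph was -0.71 ± 0.26 (SE, edgeR adjusted p = 0.119). Cenpk and Cenph had log2 fold changes of -0.57 and -0.97 with all 6 libraries, and none passed the test.

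Cenpu, Cenpw and Cenps are described because their values were also lower at an unadjusted p under 0.05, whereas Cenpi, Cenpl, Cenpn, Cenpo, Cenpp, Cenpq, Cenpt and Cenpx overlapped between the groups in both comparisons, with log2 fold changes from -0.32 (Cenpq) to 0.17 (Cenpx) in the 5 libraries. Cenpu stood at 11.01, 8.57 and 11.5 CPM in control and at 7.33, 6.45 and 7.09 CPM under A20 overexpression, and 26.7% of its exonic bases are shared with Primpol on the opposite strand (42.0 to 51.4 CPM). Cenpw stood at 50.1, 28.4 and 28.8 CPM in control and at 18.1, 25.7 and 18.1 CPM under A20 overexpression. Cenps stood at 5.80, 4.46 and 4.70 CPM in control and at 2.84, 2.49 and 3.11 CPM under A20 overexpression. In each of the 3 the groups did not overlap, and the edgeR adjusted p was 0.211, 0.142 and 0.225 in the 5 libraries. Cenpu, Cenpw and Cenps had log2 fold changes of -0.56, -0.76 and -0.81 with all 6 libraries, and none passed the test.

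Cenpa, the histone H3 variant that marks the centromere, was the most abundant CENP gene per kilobase (33.5 CPM). It stood at 147, 228 and 254 CPM in control and at 178, 203 and 169 CPM under A20 overexpression. Control replicates 2 and 3 lay above the A20-overexpressing libraries and control replicate 1 lay below them. The log2 fold change was -0.43 ± 0.14 (SE, edgeR adjusted p = 0.0916) in the 5 libraries and -0.20 ± 0.25 (SE, adjusted p = 0.816) in the 6. The large kinetochore proteins Cenpe, a motor, and Cenpf had log2 fold changes of -0.22 ± 0.14 and -0.06 ± 0.14 (SE) in the 5 libraries, and Cenpf ran from 127 to 159 CPM over all 6. Cenpe and Cenpf had log2 fold changes of -0.11 and -0.00 with all 6 libraries, and none passed the test.

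The 8 E2F factors did not pass in either comparison. E2f4, a mainly repressive E2F and the most abundant per kilobase (31.3 CPM), stood at 87.8, 67.6 and 70.9 CPM in control and at 79.1, 82.2 and 72.7 CPM under A20 overexpression. E2f6, a repressor that acts without retinoblastoma proteins, stood at 34.3, 22.2 and 23.6 CPM in control and at 29.9, 28.9 and 31.9 CPM under A20 overexpression, with a log2 fold change of 0.37 ± 0.17 (SE, edgeR adjusted p = 0.215) in the 5 libraries. E2f7, an atypical repressor, stood at 35.0, 48.7 and 56.4 CPM in control and at 47.6, 43.4 and 34.6 CPM under A20 overexpression (-0.36 ± 0.16, adjusted p = 0.212 in the 5 libraries). Control replicate 1 lay above the A20-overexpressing libraries for E2f6, away from the other controls, and within their range for E2f7. Control replicate 1 was the highest library for the activators E2f1 (46.8 CPM against 17.6 to 28.1 CPM), E2f2 (11.1 CPM against 1.06 to 2.49 CPM) and E2f3 (27.6 CPM against 20.4 to 24.8 CPM). E2f4, E2f6, E2f7, E2f1, E2f2 and E2f3 had log2 fold changes of 0.06, 0.20, -0.16, -0.14, -1.34 and -0.04 with all 6 libraries, and none passed the test.

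The Aurora and polo-like kinases had Plk3 past the test without control replicate 1 and 5 of 6 kept genes not past. Aurka and Aurkb, the spindle pole and chromosomal passenger kinases, had log2 fold changes of 0.13 ± 0.15 and -0.13 ± 0.16 (SE) in the 5 libraries, and control replicate 1 was the lowest of the 6 libraries for both. Plk1, the main mitotic polo-like kinase, ran from 39.7 to 63.2 CPM in control and from 53.2 to 64.8 CPM under A20 overexpression. Plk2, the most abundant per kilobase (87.5 CPM), stood at 307, 423 and 361 CPM in control and at 445, 432 and 389.7 CPM under A20 overexpression (0.07 ± 0.15, edgeR adjusted p = 0.839 in the 5 libraries). Plk4, which starts centriole duplication, stood at 63.8, 64.8 and 59.7 CPM in control and at 57.5, 47.5 and 49.4 CPM under A20 overexpression. All controls of Plk4 lay above all A20-overexpressing libraries, with a log2 fold change of -0.28 ± 0.16 (SE, edgeR adjusted p = 0.575) in the 6. The groups overlapped for Aurka, Aurkb, Plk1 and Plk2. Aurka, Aurkb, Plk1 and Plk2 had log2 fold changes of 0.28, 0.08, 0.16 and 0.21 with all 6 libraries, and none passed the test.

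Of the 3 BUB genes, which delay anaphase until chromosomes are attached, 0 passed. Bub1b, which encodes BubR1, stood at 186, 199.98 and 238 CPM in control and at 184, 165 and 153 CPM under A20 overexpression. Bub1, a kinase, stood at 101, 109 and 94.1 CPM in control and at 86.4, 81.6 and 68.8 CPM under A20 overexpression. Neither overlapped between the groups in CPM, though the nearest libraries of Bub1b were 186 and 184 CPM, an order that TMM scaling would reverse. Their log2 fold changes were -0.42 ± 0.14 and -0.40 ± 0.15 (SE) in the 5 libraries (edgeR adjusted p = 0.0973 and 0.132) and -0.31 ± 0.18 and -0.36 ± 0.17 (SE) in the 6 (adjusted p = 0.582 and 0.518). Bub3 ran from 116 to 134 CPM over the 6 libraries, with a log2 fold change of -0.04 ± 0.14 (SE) in the 5.

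**Figure D4:**
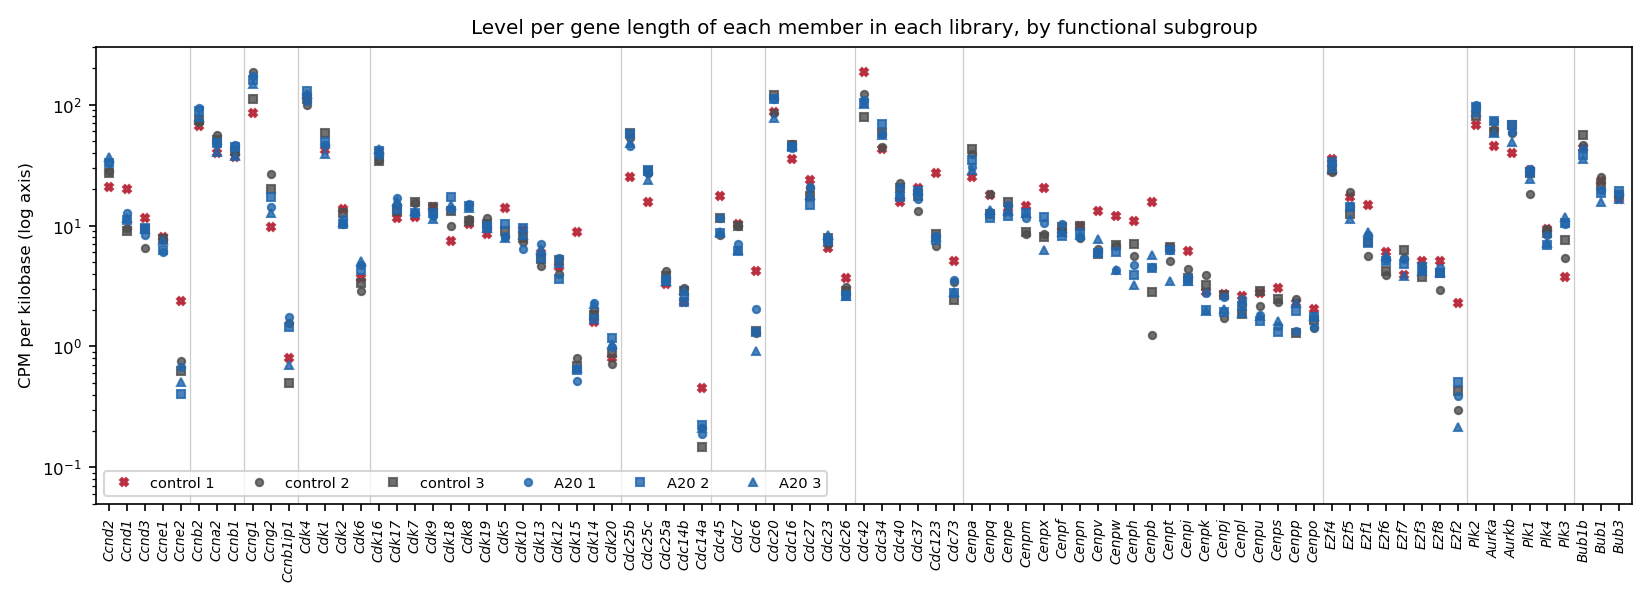
CPM per kilobase of gene length (log axis) of the 85 members kept in each of the 6 libraries, by subgroup. Ccng1, Cdc42 and Cdk4 are the highest (means of 144, 117 and 115 CPM per kilobase) and Cdc14a the lowest (0.24), and control replicate 1 (cross) leaves the other 5 libraries most for Cdk15, E2f2, Cenpb and Ccne2.

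The members differed little among the 5 libraries without control replicate 1. The highest library exceeded the lowest by a median of 1.47-fold over the members kept. Over the 13350 genes kept by the filter with all 6 libraries, the median among these 5 libraries was 1.55-fold. For the members the range was 1.08-fold to 4.61-fold, the latter in Cenpb. With all 6 libraries the median was 1.62-fold for the members and 1.90-fold for all genes. Without a count in any library were Ccna1, Ccnb3, Aurkc and Cdc34b, and Cdc20b and Plk5 had 3 counts and 1 count in a single library, below what the filter kept.

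Control replicate 1 lay above all other libraries for 35 of the 85 members kept (41.2%), below them for 25 (29.4%) and within their range for 25. Over all genes tested the shares were 40.7% above, 21.7% below and 37.6% within, and over the protein-coding genes tested they were 42.8%, 22.4% and 34.9%. Its place varied between subgroups, and no link to the role of the genes was tested. It was above the rest for 6 of the 8 E2F genes, for 4 of the 5 G1 and G1/S cyclins and for 12 of the 20 CENP genes. The same held for 3 of the 3 replication factors (Cdc6, Cdc45 and, by 42.9 against 41.3 CPM, Cdc7). It was below the rest for 3 of the 3 kept cyclins A and B, for 4 of the 6 kept Aurora and polo-like kinases and for 4 of the 5 CDC25 and CDC14 phosphatases. Other subgroups were mixed, with 2 above and 6 below of the 14 other CDKs, and 2 and 2 of the 5 anaphase-promoting complex genes. The numbers were 4 and 2 for the 6 other CDC genes, and 0 and 2 for the 3 genes of the G-type cyclins and Ccnb1ip1. They were 1 and 0 for the 4 cell cycle CDKs and 0 and 0 for the 3 BUB genes. The largest excess was that of Cdk15, a little studied CDK, at 22.0 CPM against 1.30 to 2.02 CPM in the other 5 libraries, a ratio of 13.3 to their mean. The ratio was 6.15 for E2f2, 4.15 for Cenpb, 4.02 for Ccne2, 3.48 for Cdc123 and 3.05 for Cdc6. These differences between a single library and the rest carry no test.

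**Figure D5:**
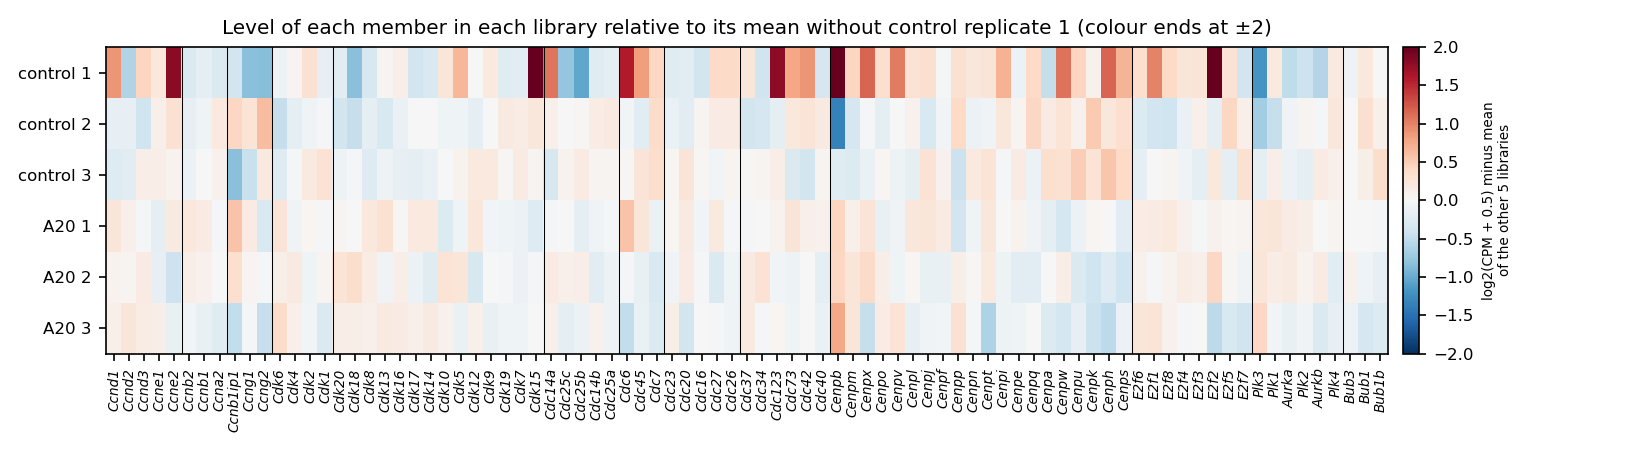
Level of each member in each library as log2(CPM + 0.5) minus its mean over the 5 libraries other than control replicate 1 (colour ends at 2 in each direction), by subgroup. The row of control replicate 1 holds most of the strong colour, with Cdk15, E2f2, Cenpb, Ccne2, Cdc123 and Cdc6 high and Plk3, Cdc25b and Ccng2 low.

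Genes that act beside these members were examined as 7 further lists. In the 5 libraries edgeR called 1 gene in them, a smaller share than the 4.6% called among all genes tested. With all 6 libraries it called none, against 0.015% of all genes. That gene was Hjurp, the chaperone that loads Cenpa onto centromeres, which fell from 559 and 579 CPM in control replicates 2 and 3 to 419, 409 and 353 CPM under A20 overexpression. Control replicate 1, at 430 CPM, was nearest to the A20-overexpressing libraries. The log2 fold change was -0.57 ± 0.14 (SE, edgeR adjusted p = 0.0323) in the 5 libraries and -0.41 (edgeR adjusted p = 0.539) in the 6. The other 19 genes of the outer kinetochore and spindle checkpoint list did not pass, and the median over the list was -0.31 in the 5 libraries, against -0.00 over all genes tested, and -0.29 in the 6.

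The remaining lists held no gene past the test in either comparison. Median log2 fold changes in the 5 libraries were -0.07 over the 12 genes of the retinoblastoma family, the DP partners of E2F and the DREAM complex, -0.05 over the 6 kept CDK inhibitors and inhibitory kinases, -0.22 over the 12 genes of the chromosomal passenger complex and cytokinesis, -0.03 over the 20 of the anaphase-promoting complex, SCF and mitotic exit, -0.01 over the 7 MCM helicase genes and -0.12 over the 4 proliferation markers. With all 6 libraries the medians of these lists, in the same order, were -0.20, 0.06, -0.11, -0.04, -0.54 and -0.36, against -0.05 over all genes tested. The most abundant gene per kilobase was Tfdp1, Cdkn1a, Tpx2, Cks1b, Mcm2 and Top2a in these lists, with log2 fold changes of -0.04, -0.36, -0.06, -0.25, 0.02 and -0.36. Cdkn1a, the CDK inhibitor p21, stood at 169, 748 and 562 CPM in control and at 512, 661 and 394 CPM under A20 overexpression, so that control replicate 1 was far below all other libraries. The MCM genes, the helicase loaded with the help of Cdc6, were all highest in control replicate 1, where they summed to 1176 CPM against 461 to 602 CPM in the other 5 libraries.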

How the data were processed

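RNA of 6 TM3 samples was sequenced as mRNA libraries. The authors deposited whole-number read counts per gene, used as deposited, and FPKM values (fragments scaled by gene length and depth), used only in an alternative. The genome build is GRCm38 (mm10), per the submitters' processing notes. The aligner, the counter and whether counting used strand are not given in the sources used here. Groups come from the labels. CPM is the count divided by the library's total count, times 1000000. It carries no TMM scaling, whose factors ran from 0.925 (control replicate 2) to 1.089 (control replicate 1) with all 6 libraries. Genes were kept by edgeR's filterByExpr and tested with edgeR 4.0.16 (R 4.3.3) quasi-likelihood and TMM scaling, with p-values adjusted by Benjamini-Hochberg across every gene kept, at 0.05, with all 6 libraries and with 5. The SE is the fold change divided by the root of F and is approximate. Alternatives were other scalings and filters, DESeq2 1.42.0, limma 3.58.1 (voom, and trend on log2(FPKM + 1)), a replicate block and leaving out each library. Genes described are those past the test, the most abundant per kilobase of each subgroup or list, and those of smallest p in each subgroup; other genes named were chosen after their values were seen. Members, lists and the fit without control replicate 1 were chosen with earlier results of these data known. Gene models are GENCODE M21, and the tests were checked on simulated counts.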

Additional observations from a re-analysis of the deposited data

How the results depend on the processing

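Of the results with all 6 libraries, the count of members past the threshold was 0 under all 9 settings that kept every library, and it ran from 0 to 5 on leaving out 1 library, the 5 being found without control replicate 1. All genes past the threshold numbered 0 with upper-quartile scaling, library size alone, limma-voom or limma-trend on log2(FPKM + 1), 23 with no filter on low counts and 183 with DESeq2, and 0 to 628 on leaving out 1 library. In the 5 libraries, limma-trend on log2(FPKM + 1) called 0 members and 109 genes, no filter gave 1173 genes, and leaving out 1 library gave 0 to 11 members and 142 to 2422 genes. Without control replicate 2 or 3 a single control remained, which is assumed to vary like the A20-overexpressing libraries. Cenpb in the 6 libraries had a log2 fold change of 0.26 with limma-voom, 0.21 with limma-trend, and Ccnd1 0.0058 with limma-trend. E2f2 in the 5 libraries had -0.0056 with a filter of at least 1 CPM in 3 libraries, -0.066 with limma-voom and -0.0033 with limma-trend. On leaving out 1 library the sign turned in at least 1 case for these genes, with log2 fold changes in the 6 libraries from -0.27 to 0.077 for Ccna2, -0.25 to 0.31 for Ccnd1, -0.72 to 0.041 for Ccng2, -1.06 to 0.015 for Cdc123, -0.60 to 0.17 for Cdc14a, -0.0497 to 0.27 for Cdc20, -0.22 to 0.064 for Cdc25a, -0.19 to 0.35 for Cdc25b, -0.23 to 0.12 for Cdc40, -0.51 to 0.011 for Cdc42, -0.25 to 0.049 for Cdk1, -0.36 to 0.57 for Cdkn1a, -0.78 to 1.25 for Cenpb, -0.25 to 0.11 for Cks1b, -1.72 to 0.0045 for E2f2, -0.36 to 0.018 for E2f7, -0.16 to 0.019 for Mcm2, -0.36 to 0.19 for Top2a and -0.064 to 0.15 for Tpx2, and in the 5 libraries from -0.32 to 1.40 for Ccnb1ip1, -0.29 to 0.52 for Ccng1, -0.10 to 0.14 for Cdc123, -0.10 to 0.50 for Cdc14a, -0.24 to 0.17 for Cdc20, -0.27 to 0.038 for Cdc27, -0.30 to 0.41 for Cdc42, -0.25 to 0.14 for Cdc45, -0.30 to 0.28 for E2f2, -0.11 to 0.16 for Mcm2, -0.079 to 0.24 for Plk2 and -0.19 to 0.13 for Tfdp1. The cause of these changes was not tested.

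Deviations from the group means correlated at 0.02, 0.11 and -0.03 for same-numbered libraries and at -0.18 to 0.15 for the others. This cannot tell whether the replicate numbers pair the libraries, because the control mean includes the outlying control replicate 1. With the replicate number as a block, 0 members and 3 genes passed in the 6 libraries and 5 members and 797 genes in the 5, where Cenpk passed and Cdk6 did not (adjusted p = 0.0656 in edgeR), and the log2 fold change was 0.39 for Cenpb in the 6 libraries and -0.0059 for Cdc123 and -0.10 for E2f2 in the 5. Depth limits the members under about 3 CPM most, such as Ccne2, E2f2, Cdk15 and Cdc14a.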
